A study of Mus musculus with 5 samples.

Results

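Broad H3K4me1 domains that hold Runx3 were examined in IL-2-activated splenic CD8-TC. H3K4me1-marked regions separated by gaps under 1000 bp were joined, and the joined domains were chosen by a width of 5000 bp or more and by sharing at least 1 bp with a Runx3-bound region. This gave 922 domains, out of 14899 joined domains in all. They were 72.1% of the 1279 broad domains (95% Wilson interval 69.6 to 74.5%), 357 broad domains held no Runx3, and 3719 narrower domains held it. Over domains of every width, 4641 held Runx3, or 31.1%. Width and Runx3 overlap made the selection, so both are given below as descriptions only.

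The cells were CD8+ T cells from the spleens of wild-type (WT) ICR mice, per the study's methods. Their age was not given in the labels. The cells had been isolated on anti-CD8 beads, activated through the TCR for 2 days on plates coated with anti-CD3e in the presence of anti-CD28, and kept for 4 more days in IL-2 at 100 u/ml. ChIP libraries were made with anti-Runx3 antibody (2), non-immune rabbit serum as control (NIS, 2) and anti-H3K4me1 antibody (1 in the labels). Peaks had been called once for each antibody on joined reads against NIS. The lists held 9135 Runx3-bound and 18992 H3K4me1-marked regions with no height or score, so they give neither the spread between libraries nor the number of reads behind a region. Intervals below are 95% intervals that cover counting error over regions only, and neighbouring regions are not independent.

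Monomethylation of lysine 4 of histone H3 marks enhancers and the flanks of promoters, whether these are active or poised. Most enhancers carry it over a short stretch, while genes that define a cell type often lie in long stretches of the mark that hold several binding sites. Runx3 is a RUNX family transcription factor that binds DNA together with Cbfb, is highly expressed in CD8-TC and supports their cytotoxic program, and its sites are often found beside those of ETS factors.

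The DNA under Runx3 is shown for the 3 widest domains (Ets1, Fli1 and Jak1), for those with the most Runx3-bound regions (near Grap2, near Rplp1, and again Fli1) and for the widest domain of 2 gene lists (Tnfrsf9 for co-stimulation and Fasl for cytotoxicity). Each sequence is the central 200 bp, on the plus strand of mm9, of the domain's Runx3-bound region with the most RUNX motifs in those 200 bp (the first by position on a tie). Capitals mark RUNX motifs, that is TGTGGT or TGTGGC or TGCGGT or TGCGGC on the plus strand, or the reverse complement of any of them.
Ets1 domain, chr9:32538446-32538645: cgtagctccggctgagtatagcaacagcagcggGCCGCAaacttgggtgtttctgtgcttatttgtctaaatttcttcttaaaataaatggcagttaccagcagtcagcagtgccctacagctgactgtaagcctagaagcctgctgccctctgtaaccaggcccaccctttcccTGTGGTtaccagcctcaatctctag
Fli1 domain, chr9:32311719-32311918: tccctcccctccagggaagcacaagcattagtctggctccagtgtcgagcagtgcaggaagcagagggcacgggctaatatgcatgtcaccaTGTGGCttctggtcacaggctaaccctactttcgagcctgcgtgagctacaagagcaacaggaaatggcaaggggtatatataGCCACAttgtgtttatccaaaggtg
Jak1 domain, chr4:100860146-100860345: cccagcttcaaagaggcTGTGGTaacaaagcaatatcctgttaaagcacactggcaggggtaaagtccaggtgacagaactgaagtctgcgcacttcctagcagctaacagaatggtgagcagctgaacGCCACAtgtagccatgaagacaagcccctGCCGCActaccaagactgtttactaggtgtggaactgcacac
Domain near Grap2, chr15:80421214-80421413: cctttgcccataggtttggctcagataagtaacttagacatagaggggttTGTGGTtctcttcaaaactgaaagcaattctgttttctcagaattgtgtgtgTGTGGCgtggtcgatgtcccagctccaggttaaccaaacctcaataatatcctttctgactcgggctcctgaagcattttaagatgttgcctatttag
Domain near Rplp1, chr9:61515324-61515523: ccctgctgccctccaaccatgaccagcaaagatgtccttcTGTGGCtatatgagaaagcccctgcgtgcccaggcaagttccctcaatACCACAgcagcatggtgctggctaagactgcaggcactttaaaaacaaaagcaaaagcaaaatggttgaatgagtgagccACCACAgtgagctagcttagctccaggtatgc
Tnfrsf9 domain, chr4:150298407-150298606: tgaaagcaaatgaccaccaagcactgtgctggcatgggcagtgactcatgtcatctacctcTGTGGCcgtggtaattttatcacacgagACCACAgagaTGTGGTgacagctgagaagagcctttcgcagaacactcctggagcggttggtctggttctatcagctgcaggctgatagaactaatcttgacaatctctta
Fasl domain, chr1:163709335-163709534: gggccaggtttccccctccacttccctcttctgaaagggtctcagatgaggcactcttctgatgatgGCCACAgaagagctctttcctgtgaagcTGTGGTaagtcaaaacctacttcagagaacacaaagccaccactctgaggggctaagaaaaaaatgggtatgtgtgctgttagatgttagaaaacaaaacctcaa

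These windows held 2 or 3 RUNX motifs each, since they were picked for their number. The motifs lay on both strands, and in the Tnfrsf9 window an ACCACA and a TGTGGT stood 4 bases apart. ETS motifs (AGGAAA or AGGAAG or CGGAAA or CGGAAG on either strand) were found in the Fli1, Jak1 and Fasl windows. The Tnfrsf9 window held 1 AP-1 motif (TGACTCA or TGAGTCA), and the other windows held 0.

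The 922 domains were 6.19% of all joined domains but held 20.5% of their bases, 7505 kb in all. Their median width was 6804.5 bp (quartiles 5697 and 9210 bp, range 5005 to 38655 bp). Most were assemblies of several peaks: 819 were joined from 2 or more H3K4me1-marked regions and 103 were single regions, with up to 12 regions in 1 domain. At the width limit, the narrowest members were near Id2 and at Ank (5005 bp each) and near Setbp1 (5007 bp). The widest domains with Runx3 that fell short were at Rnf125 (4994 bp), Crem (4993 bp) and Vgll4 (4992 bp). The domains lay on all 19 autosomes, from 25 on chromosome 18 to 100 on chromosome 11. No broad domain with or without Runx3 was found on X, where the widest of 51 joined domains was 4857 bp.

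In these domains lay 1368 Runx3-bound regions, 15.0% of all. A single Runx3-bound region was held by 576 domains, 2 by 270, 3 by 60, 4 by 10, 5 by 4 and 6 by 2. Among the 346 domains with 2 or more, centres of neighbouring Runx3-bound regions were a median of 2.92 kb apart (446 pairs, quartiles 1.80 and 4.41 kb). The share of domains with Runx3 rose with width, from 13.4% of those under 1 kb to 66.2% at 5 to 7 kb, 89.8% at 10 to 15 kb and 94.2% of the 52 domains of 15 kb or more. Per 10 kb of domain, the number of Runx3-bound regions was 1.55 under 1 kb and 1.43 at 5 to 7 kb. It was 1.36 at 7 to 10 kb and 1.20 from 15 kb. A region was counted whole if it shared 1 bp, while only the bases of the domain were divided by. This raises the density of narrow domains most, so no trend of density with width is read from these values.

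**Figure D1:**
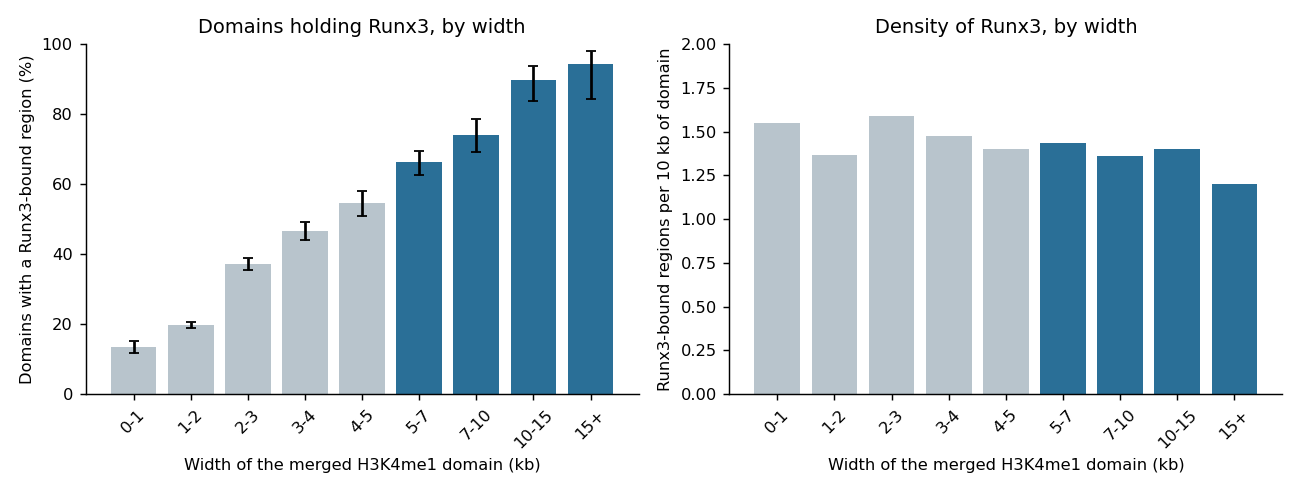
Left, percent of joined H3K4me1 domains with at least 1 Runx3-bound region, by domain width in kb, with 95% Wilson intervals; right, Runx3-bound regions per 10 kb of domain. Dark bars are domains of 5 kb or more: on the left they rise from 66.2% to 94.2%, while on the right they lie between 1.20 and 1.43.

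The 4 widest domains lay inside Ets1, Fli1, Jak1 and Ikzf1, all with roles in lymphocyte gene control or cytokine signalling. The widest, 38655 bp (chr9:32518456-32557110), lay inside Ets1, which encodes an ETS factor. It held only 2 Runx3-bound regions, both intronic, at 94.7 and 105 kb from the Ets1 start. The next lay inside the neighbouring gene Fli1, another ETS factor (chr9:32294136-32332061, 37926 bp), and held 5, all intronic. Jak1, a kinase that signals for many cytokine receptors including that of IL-2, had a domain of 37039 bp (chr4:100839394-100876432) with 4 Runx3-bound regions and another of 17965 bp with 1. In the first of these, 1 Runx3-bound region touched a coding exon and 3 were intronic. Ikzf1, the lymphoid zinc finger factor Ikaros, had a domain of 34431 bp with 3.

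Wide domains were also found at genes of other roles. Bcl2, an inhibitor of apoptosis, had 30010 bp with 3 Runx3-bound regions, all intronic and more than 100 kb from the gene start (101 to 113 kb). Myh9, a non-muscle myosin heavy chain, had 27693 bp with 3. A domain of 26998 bp with 3 lay downstream of Socs1, an inhibitor of cytokine signalling. A domain of 24965 bp (chr7:132721174-132746138) ran from the 3' end of Il4ra, the IL-4 receptor alpha chain, to within 5 kb upstream of Il21r, the IL-21 receptor, and its 5 Runx3-bound regions were all intergenic. The last, 24049 bp with 2, was intergenic and nearest to 3110018I06Rik.

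The most Runx3-bound regions in 1 domain were 6. One such domain was the fifth widest (chr15:80409448-80442068, 32621 bp), centred at -28.2 kb from the start of Grap2, which encodes the T cell adaptor Gads. Its Runx3 centres lay from -32.6 to -11.8 kb, and the last of them fell just beyond the domain's end. The other was much narrower (chr9:61507808-61519526, 11719 bp) and far from any protein-coding start, 249 kb from that of Rplp1. The centres of its 6 Runx3-bound regions stood in a row within 7.1 kb, and 5 of the regions had a RUNX motif in their central 200 bp. Domains with 5 were those at Fli1 and Il4ra, a domain far upstream of Setbp1 on chromosome 18, and the domain of Tnfrsf9, which encodes the co-stimulatory receptor 4-1BB (chr4:150286025-150304337, 18313 bp). In Tnfrsf9, 1 Runx3 centre lay 0.029 kb from the gene start in an unmarked gap, and the others lay at 2.97, 6.80, 9.84 and 10.6 kb inside the gene.

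A domain of 18803 bp with 4 Runx3-bound regions (chr14:54839062-54857864) was named for Dad1 by the rule used here, but it also covered Trac, the constant gene of the TCR alpha chain (chr14:54840196-54842772). One Runx3 centre lay at -0.51 kb from the end of Trac, that is inside the gene, and the others lay 2.17, 4.42 and 10.4 kb past it, toward Dad1. The enhancer of the TCR alpha locus is known to lie between these genes. All 4 centres fell in unmarked gaps of the domain. Besides Jak1, the other domains with 4 among the 10 with the most were inside Eif2c2, an Argonaute gene (20859 bp), and Eps15l1, an endocytic adaptor gene (19639 bp).

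**Figure D2:**
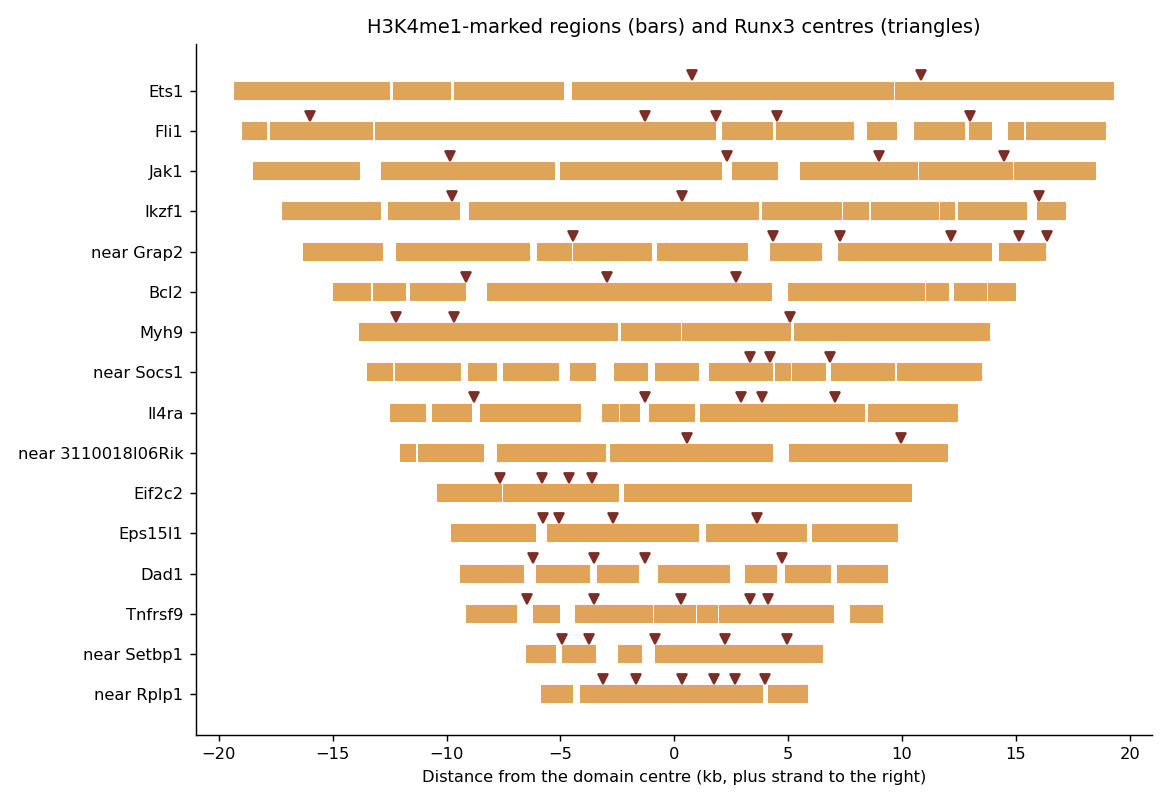
The 10 widest domains and the 10 with the most Runx3-bound regions (16 domains in all), with distance from the domain centre in kb; bars are H3K4me1-marked regions, blanks inside a domain are unmarked gaps, and triangles are centres of Runx3-bound regions. Runx3 is sparse in the widest domain (Ets1, 2 in 38655 bp) and dense in the domain near Rplp1 (6 in 11719 bp), and all 4 centres in the Dad1 domain stand over gaps.

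Within the domains, fewer Runx3 centres lay in the outermost parts of the width than in the inner ones. Of the 1368 centres, 57.4% lay within the middle 50% of the width (95% interval 54.7 to 60.0%). With the width cut into 10 equal parts, each of the inner parts held 132 to 167 centres, whereas the first held 50 and the last 39. A further 74 centres lay just beyond the domain ends, since sharing 1 bp was enough. In all, 61.2% of domain centres lay in a protein-coding gene, and 76.8% of the Runx3-bound regions were over 5 kb from any annotated transcription start site (TSS).

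Cover by called H3K4me1-marked regions was lower at Runx3 centres than beside them, and the height of the mark was not measured. Of the 1294 Runx3 centres inside a domain, 1050 lay in an H3K4me1-marked region and 244 in a gap between marked regions, 18.9% (95% interval 16.8 to 21.1%), while gaps made up 6.38% of the domains' bases. Per base, centres were 3.41 times as frequent in gaps (5.09 per 10 kb) as in marked sequence (1.49 per 10 kb). That ratio depended on the merging: it was 5.32 with merging under 500 bp and 1.84 under 2000 bp, settings chosen after seeing the data. Narrow gaps were the densest, with 10.5 centres per 10 kb in gaps under 250 bp and 2.20 in those of 750 bp or more. Cover by the mark was 81.1% at the Runx3 centre and 95.6% and 95.0% at 500 bp to either side, and it was 93.7% and 94.0% at 3 kb. Of the 1624 gaps, 242 (14.9%) held a Runx3 centre. The gaps with one had a median of 330.5 bp and those without a median of 165 bp (the part of gap width was not tested). The 357 broad domains without Runx3 had a like share of their bases in gaps, 6.56%, so the unmarked share was not larger where Runx3 was present. In narrower domains of 2 or more marked regions with Runx3, 21.9% of gaps held a centre.

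**Figure D3:**
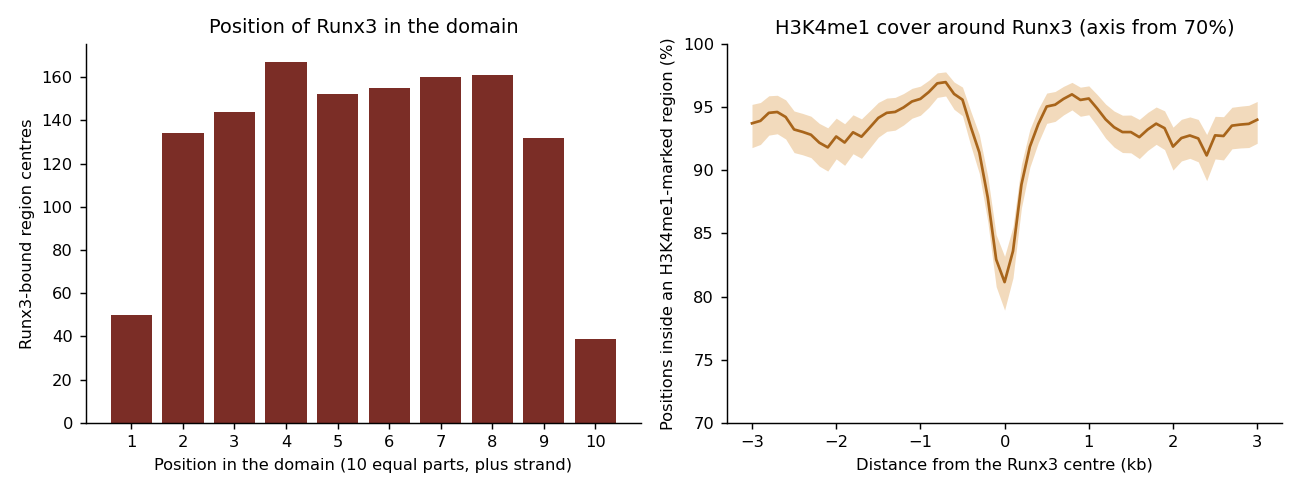
Left, number of Runx3-bound region centres in each of 10 equal parts of the domain's width; right, percent of positions inside an H3K4me1-marked region by distance from the Runx3 centre in kb, with its 95% Wilson interval, for positions inside the domain (axis from 70%). The outermost parts hold 50 and 39 centres against 132 to 167 in the inner ones, and cover falls to 81.1% at the centre.

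In the central 200 bp, 79.2% of the Runx3-bound regions in broad domains held a RUNX motif (76.9 to 81.2%), against 81.5% of the 3891 Runx3-bound regions in narrower domains (difference -2.38 points, interval -4.91 to 0.04), 75.8% of the 3876 outside H3K4me1 domains and 78.8% of all 9135. The difference from the regions outside was 3.37 points (0.77 to 5.85). Among regions over 5 kb from a TSS it was -2.52 points (-5.74 to 0.63), and the difference from narrower domains was -3.00 points (-5.93 to -0.22). The rest of the same domains served as background: of 31892 windows of 200 bp that touched no Runx3-bound region, 30.9% held the motif. TGTGGT was the most frequent form, in 58.4% of the Runx3-bound regions and 16.5% of these windows. Narrower domains had TGTGGT in 63.7%, a difference of -5.28 points (-8.31 to -2.28). TGCGGT, which contains CpG, was in 9.14% of the Runx3-bound regions, against 19.9% of those outside H3K4me1 domains. Over 5 kb from a TSS, the shares were 8.75% and 13.1%, a difference of -4.39 points (-6.83 to -1.90).

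ETS motifs were in 67.5% of the Runx3-bound regions of broad domains (64.9 to 69.9%), in 68.8% of those in narrower domains and in 63.0% of those outside, with 66.1% over all Runx3-bound regions and 45.6% in the windows around them. Against the regions outside, the ETS share was higher by 4.47 points (1.52 to 7.34). Among regions over 5 kb from a TSS it was higher by 8.28 points (4.43 to 12.1). AP-1 motifs were in 8.85% (7.45 to 10.5%), 7.61% and 4.54%, with 6.49% over all Runx3-bound regions and 4.22% in the windows. Against the regions outside H3K4me1 domains, the AP-1 share was higher by 4.30 points (interval 2.75 to 6.04). Restricted to regions over 5 kb from a TSS, that difference was 1.81 points (-0.33 to 4.05), so it did not exceed counting error among distal regions.

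In the central 200 bp, RUNX-RUNX pairs were less frequent in Runx3-bound regions of broad domains than in those of narrower ones. Median region widths were 571.5 and 528 bp, and the part of region width in the motif and pair shares was not tested. These pairs, that is 2 RUNX motifs with at most 50 bases between them, were in 23.1% of the Runx3-bound regions of broad domains and 29.2% of those of narrower domains, a difference of -6.12 points (interval -8.72 to -3.42). The difference was -6.92 points (-9.91 to -3.80) among regions over 5 kb from a TSS and -5.75 points (-8.77 to -2.57) with only the most central region of each domain. Over all Runx3-bound regions 25.7% held such a pair, and outside H3K4me1 domains 23.1% did. Over 5 kb from a TSS the share outside was 32.2%, and the difference of broad domains from it was -9.65 points (-13.1 to -6.10). ETS-RUNX pairs were in 38.9% of the regions of broad and 43.5% of those of narrower domains, a difference of -4.57 points (-7.56 to -1.53). With 1 region per domain that difference was -2.22 points (-5.74 to 1.36) and no longer exceeded counting error. Over all Runx3-bound regions 39.0% held an ETS-RUNX pair. AP-1-RUNX pairs were in 4.68% and 4.21%, a difference of 0.46 points (-0.74 to 1.85). Runx3-bound regions that were the only one of their domain held an ETS motif more often (71.9% of 576) than those that shared a domain (64.3% of 792), a difference of 7.61 points (2.59 to 12.5), while their RUNX shares were 80.4% and 78.3% (difference 2.10, interval -2.29 to 6.37).

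All 6-base words were also compared between the 1368 central windows and the 31892 other windows. Ranked by difference in share, the first 5 were parts of the RUNX motif and its flanks: ACCACA (58.4% against 16.5%), AACCAC (46.9% against 11.4%), CCACAG (46.6% against 21.6%), CCACAA (33.8% against 11.9%) and AAACCA (37.4% against 16.4%). The next were CAGGAA (42.3% against 22.7%) and AGGAAG (44.7% against 26.5%), which contain the ETS core. AACCAC is the reverse complement of GTGGTT, so a T after GTGGT was frequent. The ranking was made on these same windows and carries no test.

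**Figure D4:**
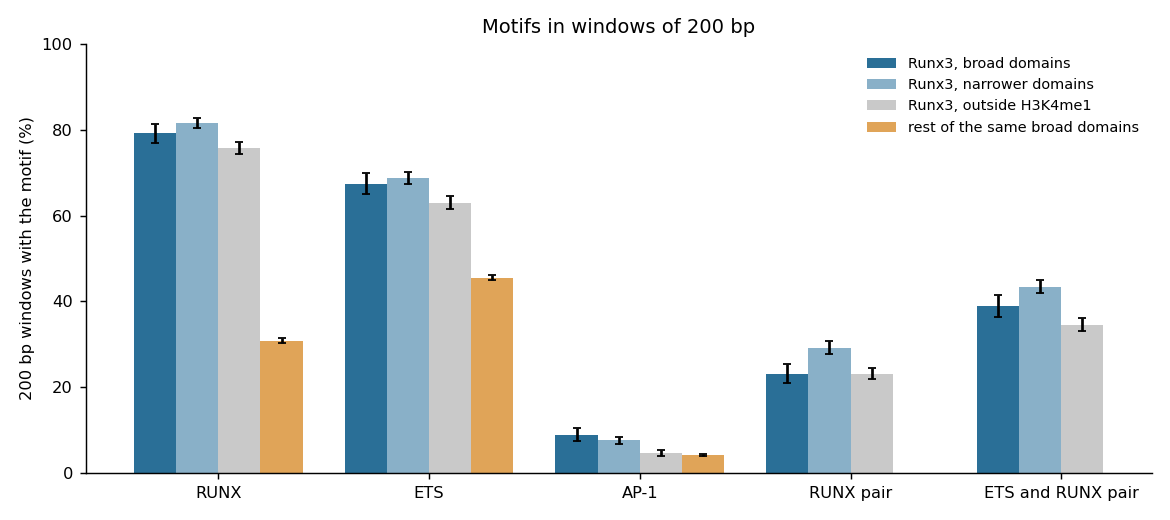
Percent of 200 bp windows with a RUNX, ETS or AP-1 motif, and with a pair of RUNX motifs or an ETS and a RUNX motif at most 50 bases apart, with 95% Wilson intervals; pairs were not counted in the rest of the domains. RUNX motifs are at 79.2% in broad and 81.5% in narrower domains, and RUNX pairs are at 23.1% and 29.2%.

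Broad domains with and without Runx3 were then compared for what the selection had not used. Base composition was alike, with a median GC content of 46.5% with Runx3 and 46.3% without, and 10.7 CpG per kb in both. Over whole domains, the pooled density of RUNX motifs was 2.14 per kb with Runx3 and 2.01 per kb without (medians 2.10 and 1.91 per kb). Outside Runx3-bound regions it was 1.92 per kb in the domains with Runx3. This last value leaves out the bound sequence of one kind of domain only, by the overlap that made the selection. With the same limit, of 200 bp windows outside Runx3-bound regions 30.9% and 32.2% held a RUNX motif, a difference of -1.30 points (interval -2.28 to -0.32), and 45.6% and 46.7% an ETS motif, a difference of -1.15 points (-2.20 to -0.10).

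The 2 kinds of broad domain also differed in their place. A first intron held the centre of 24.7% of the domains with Runx3 and 37.3% of those without, a difference of -12.5 points (interval -18.3 to -6.88). A protein-coding gene held the centre of 61.2% and 69.5%, a difference of -8.30 points (-13.9 to -2.45), while 33.3% and 27.5% had no base in such a gene. The start of a protein-coding gene was inside 3.47% and 5.04% (difference -1.57, interval -4.53 to 0.72). Narrower domains with Runx3 had 52.3% of centres in a gene (difference 8.85 points, interval 5.28 to 12.3) and 16.9% in a first intron. Another broad domain was centred within 50 kb of 42.1% of domains with Runx3 and of 45.7% of those without (difference -3.58, interval -9.64 to 2.45).

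The Runx3-bound regions of broad domains were intronic or intergenic rather than exonic. Only 3.14% had their centre in an exon, against 4.88% in narrower domains and 19.1% outside H3K4me1 domains. Under 1 kb from a TSS lay 6.73%, against 49.6% outside H3K4me1 domains. First introns held 24.9%, against 16.8% in narrower domains, a difference of 8.09 points (interval 5.57 to 10.7), and 16.3% outside. Their median width was 571.5 bp, against 528 and 497 bp.

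Genes of T cell function were counted at the domains more often than genes in general. A gene was counted when its body or the 5 kb upstream met a domain, which held for 613 of 22238 protein-coding genes, or 2.76%. Of 149 listed genes of T cell function, 45 were counted (30.2%, interval 23.40 to 37.99%). Limited to genes with any H3K4me1 domain, the shares were 35.2% of 128 listed genes and 10.7% of 5716 genes. Long genes offer more room, and the counted genes were long: the 45 had a median span of 69.99 kb, the 104 listed genes not counted 18.1 kb, and all protein-coding genes 15.5 kb. The part of gene length in these shares was not tested. Another 8 of the 149 listed genes met only broad domains without Runx3. No share over all genes was counted for those domains. The higher share of listed genes is thus not shown to be particular to broad domains that hold Runx3.

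By this rule genes of TCR signalling were counted most often, 11 of 24. Another rule counted a gene when its start was the nearest protein-coding start to a domain centre. It held for 745 of all 22238 protein-coding genes (3.35%). By it the genes of TCR signalling were also 11 of 24. By the gene body and 5 kb upstream, the 11 included Cd247 (the zeta chain), the kinases Fyn and Zap70 and the adaptor Lcp2. They also included the paracaspase Malt1, the phospholipase Plcg1, the kinase Prkcq, the phosphatase Ptprc (CD45), the ubiquitin ligase Cblb and the receptor Cd6. Prkcq had a domain of 20384 bp and Ptprc one of 19376 bp, each with 1 Runx3-bound region, and Plcg1 one of 13400 bp with 2. Lck and Rasgrp1 were met by broad domains without Runx3, of 6322 and 5614 bp. Rasgrp1, an activator of Ras, was also the nearest gene of 2 domains with 2 Runx3-bound regions each (7320 and 9179 bp), centred at -76.1 and -101 kb from its start.

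Transcription factors had 15 of 42 by the gene body and 5 kb upstream (35.7%, interval 23.0 to 50.8%). That interval overlapped the one of TCR signalling (45.8%, 27.9 to 64.9%). By the nearest start the order was reversed, with 20 of 42 transcription factors (47.6%) and 45.8% for TCR signalling. By the gene body and 5 kb upstream, those counted included the RUNX genes Runx1 (2 domains) and Runx2, beside Ets1, Fli1 and Ikzf1. Others were the ETS gene Elf1, the Ikaros relative Ikzf3 and the quiescence and memory factors Bach2 (3 domains), Tcf7 and Foxo1. The rest were the T lineage factor Bcl11b (12468 bp, 2 Runx3-bound regions), Nfatc1 to Nfatc3 and Nfkb1. At Tcf7 the domain had 10009 bp and 1 Runx3-bound region. The bodies of Runx3 itself and Prdm1, with 5 kb upstream, met broad domains without Runx3 (5985 and 9294 bp). Runx3 was, however, the nearest gene of 3 domains with Runx3 upstream of it. The widest (chr4:134622290-134642750, 20461 bp) held 3 Runx3-bound regions and was centred at -44.0 kb from the gene start, and the others held 1 each, at -21.1 and -13.2 kb.

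Among cytokine receptors and the JAK-STAT pathway 8 of 27 were counted (10 of 27 by the nearest start): Il4ra and Il21r (by the same domain), Il12rb2, Il18r1, Il10ra, Jak1, Stat5b and the signalling inhibitor Cish. The Cish domain had 12955 bp and the Il18r1 domain 8202 bp, with 2 Runx3-bound regions each. The IL-2 receptor chains Il2ra, Il2rb and Il2rg were not counted. Co-stimulatory and inhibitory receptors had 6 of 20 by either rule, namely Tnfrsf9, Tnfrsf1b (3 domains, 28413 bp, 4 Runx3-bound regions), Cd2, Cd27, Cd226 and Ctla4. Adhesion and homing had 4 of 18 (7 of 18 by the nearest start). The 4 included Ccr7, Cxcr6 and Itgae. Ccr7, the chemokine receptor for lymph nodes, had 7442 bp with 2. Cxcr6, which lies within Fyco1, had 11509 bp with 1. Itgae, the CD103 integrin chain, had 6069 bp with 1.

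The count of cytotoxic effectors and chemokines depended on the rule. By the gene body and 5 kb upstream it was 1 of 18 (5.56%, interval 0.99 to 25.8%), and by the nearest start 7 of 18 (38.9%, interval 20.3 to 61.4%). All protein-coding genes were at 2.76% by the first of these rules and at 3.35% by the nearest start. The gene counted by the first rule was Fasl, the ligand of the death receptor Fas. It had a domain of 6753 bp over the gene's 3' end (chr1:163706222-163712974), with Runx3 9.19 kb from the start, and another of 6145 bp upstream, with Runx3 at -6.35 kb. By the nearest start Csf2, Gzmb, Ifng, Xcl1, Ccl3 and Ccl5 were added. Gzmb, the serine protease granzyme B, was nearest to 2 domains (9068 and 7423 bp) with 2 Runx3-bound regions each, centred at -22.5 and -33.7 kb from its start. Xcl1, a chemokine, was nearest to a domain of 11783 bp with 3, at -24.7 kb. The domain nearest to Ifng, the interferon gamma gene, had 6193 bp with 1, at 38.3 kb. Tnf had a broad domain without Runx3 (5859 bp). Of markers, 4 of 10 T cell genes were counted by the first rule (Cd247, Cd2, Cd6 and Cd8b1, 3 of which are also on the lists above). Of the others 0 of 8 B cell (interval up to 32.4%), 0 of 8 myeloid (up to 32.4%) and 0 of 10 non-blood genes (up to 27.8%) were counted. Lists this short cannot tell 0 from the 2.76% of all protein-coding genes. By the nearest start these counts were 3 of 10 T cell, 0 B cell, 0 myeloid and 1 of 10 non-blood genes (Apoa1, an apolipoprotein). Some H3K4me1 domain was met by 4 of the B cell, 2 of the myeloid and 0 of the non-blood genes.

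**Figure D5:**
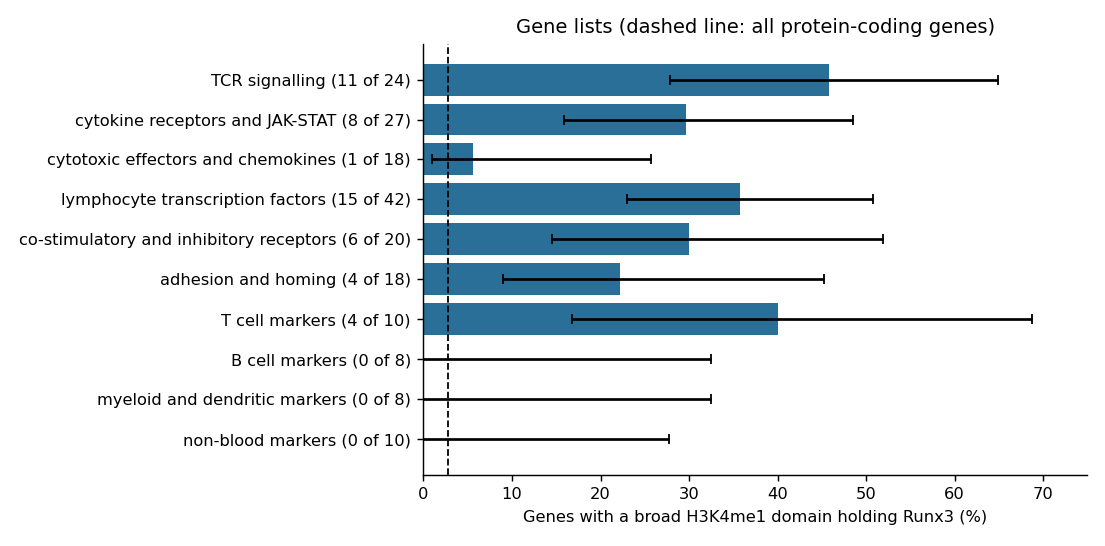
Percent of the genes of each list whose body or 5 kb upstream met a broad H3K4me1 domain holding Runx3, with 95% Wilson intervals. The dashed line is the share of all protein-coding genes (2.76%). TCR signalling is highest with 11 of 24. Cytotoxic effectors have 1 of 18 (7 of 18 by the nearest start, where all genes are at 3.35%, not plotted). The B cell, myeloid and non-blood lists have 0, with intervals up to 32.4, 32.4 and 27.8%.

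Some genes met several of the domains: 67 met 2 and 24 met 3 or more. Prex1, an exchange factor for Rac, met 6 (51445 bp, 9 Runx3-bound regions). Prkch (a protein kinase C), Sema4d (a semaphorin of lymphocytes), Eif4e3 and Abtb2 met 4 each. The largest number, 9, was that of Gm20388, a gene model of 4435 kb that overlaps 74 other genes. Sla, an adaptor that limits TCR signalling, met 3, the same ones as Tg, the gene it lies in. No protein-coding gene was within reach for 264 domains, and 30.3% of the domains were centred over 50 kb from a protein-coding start.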

How the data were processed

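Libraries were made by ChIP with anti-Runx3, NIS or anti-H3K4me1 from splenic CD8-TC cultured in IL-2. The authors aligned reads of 40 to 42 bases to mm9 with ELAND, kept unique alignments, joined repeats and called peaks with MACS 1.4 against NIS, and deposited the start and end position of each peak, without scores. Joining hides the spread between libraries, and whether 1 or 2 libraries lie behind the H3K4me1 peaks is not clear from the labels.

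H3K4me1-marked regions with gaps under 1000 bp were joined, and domains of 5000 bp or more sharing 1 bp with a Runx3-bound region were kept. A Runx3-bound region that met 2 domains (1 case) was counted in the broad one. Sequence and genes were NCBIM37 (mm9) and GENCODE vM1, and coordinates are counted from 1. A domain was named for the protein-coding gene it overlapped most, otherwise for the nearest protein-coding start. Motifs were searched on both strands in the central 200 bp. Shares carry 95% Wilson intervals and differences Newcombe intervals. Named domains were the 10 widest, the 10 with the most Runx3-bound regions and up to 6 per gene list by width; genes outside this rule, such as those with several domains, were named after their values were seen. The domains and the gene lists were chosen with earlier results of these data known. Merging, motif search and intervals were tested on simulated data. Python with pandas and SciPy was used. Some items that the rule would name are not reported here.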

Additional observations from a re-analysis of the deposited data

How the results depend on the processing

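Of 40 alternative values for 14 results, 13 stayed close to the value reported. Close meant within its 95% interval, for counts within 1.5 times, and for RUNX motifs per kb within 1 standard deviation over domains. The number of domains holding Runx3 fell to 256 with no merging and to 316 at a minimum width of 8000 bp, and was 745 to 1312 under the other settings. The share of broad domains holding Runx3 was 68.1% with no merging, 65.8% at 4000 bp, 84.5% at 8000 bp and 69.0% where the Runx3 centre, or 50% of the region, had to lie inside. The RUNX share was 76.9% with no merging and 76.6% at 8000 bp. In windows of 100 bp, 400 bp and the whole region, it was 51.6, 91.0 and 93.6%, the ETS share 44.5, 87.2 and 92.1%, and the AP-1 share 4.39, 13.5 and 18.2%, as windows of other length must give. With 1 start per protein-coding gene 90.6% of Runx3-bound regions were over 5 kb away, and with all transcripts 16.2% of domains held a start. The middle 20% of the width held 22.4% of Runx3 centres. Listed genes were at 11.4% by a start within 5 kb of the domain (all genes 1.08%) and at 40.9% by the nearest start (all genes 3.35%). Chosen after seeing the data, the share of centres in gaps was 14.3% with merging under 500 bp (gaps 3.04% of bases) and 23.3% under 2000 bp (14.1% of bases). The cause of these shifts was not tested beyond what each setting itself changes. No paired analysis was possible because peaks were called once per antibody on joined reads. No reads per region are in the lists, so a domain without a called Runx3-bound region is not shown to lack Runx3.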
